A study of Caenorhabditis elegans with 4 samples.

Results

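The genes described here are the 10 core genes of the Sma/Mab pathway, the BMP pathway that sets body size in C. elegans: dbl-1, daf-4, sma-2, sma-3, sma-4, sma-6, sma-9, sma-10, lon-1 and lon-2. They were chosen by name and not by a cutoff on their values, but with earlier results of these data known. Of the 19912 genes in the count table, 9 of the 10 were found under these symbols, and sma-10 was found under its locus name, T21D12.9. RNA came from whole animals of the N2 wild type (var. Bristol), adults 48 h after L4, kept for 48 h on plates with 100 nM arsenite (2 libraries) or on control plates with the solvent, H2O (2 libraries). By the authors' general methods, treatment and control plates came from the same batch of agar, and heat-inactivated OP50 E. coli served as food. Whether the plates of both replicates shared a batch is not said. No source used here says that the replicates were separate cultures, so the p-values reflect the spread between libraries and nothing more, and this spread may be technical.

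In this pathway a BMP-like ligand made mainly by neurons, DBL-1, reaches receptors on the epidermis and other tissues. The type II receptor DAF-4 and the type I receptor SMA-6 then act through the Smad proteins SMA-2, SMA-3 and SMA-4, which enter the nucleus and regulate genes together with cofactors such as SMA-9. Loss of a gene that drives the signal gives small (Sma) worms, and loss of a gene that restrains it gives long (Lon) worms. The pathway is also known for its roles in the male tail (Mab), the cuticle, lipid stores and innate immunity of the worm.

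The libraries held 30583832 to 35218389 reads, as recovered from the deposited RPKM values (reads scaled by transcript length and by sequencing depth). All 10 genes passed the filter on low counts, with raw counts of 117 to 59646 per library. Gene counts in the table add up all RefSeq transcripts of a gene, so a read in an exon shared by several transcripts was counted several times: the gene count was close to 3 times that of the largest transcript for lon-1, 2.51 to 2.54 times for daf-4, 2.24 to 2.35 times for sma-10, 1.37 to 1.43 times for sma-4 and 10.3 times for sma-9. Normalized counts below carry this multiple, while RPKM values divide by length. As markers of the tissues in these whole animals, the lists for epidermis, neurons, intestine, body wall muscle, pharynx, germ line and embryo were all detected in every library, and the sperm list was near 0 (summed RPKM 0.366 to 0.549, gsp-3 at 0 in 1 library). The pharynx list had a summed RPKM of 104 to 110 in the controls and 86.9 to 91.4 with arsenite. Of its 4 genes the edgeR exact test called 2 lower, myo-1 (adjusted p = 0.0316) and myo-2 (0.0028). The exact test called 1.01% of all tested genes, in either direction. By the quasi-likelihood test 0 of the 4 passed, and 3 were lower at an unadjusted p under 0.05, beside 5.05% of all tested genes. The body wall muscle list had a summed RPKM of 657 to 675 in the controls and 595 to 609 with arsenite. The embryo list had 14.3 and 15.7 in the controls and 12.5 and 12.5 with arsenite. Germ line sums overlapped between groups, although the 5 genes had fitted log2 fold changes of 0.027 to 0.15. The part of these lists in the values of the 10 genes was not tested. In such bulk samples fewer cells of a type and less RNA per cell cannot be told apart.

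Over all libraries the 10 genes differed far more from each other than between the groups. Per transcript length, sma-2 had the highest level with a mean of 52.0 ± 2.29 RPKM (SD, n = 4 libraries), followed by lon-1 (35.0 ± 2.23), sma-9 (25.8 ± 0.547), daf-4 (25.4 ± 0.644) and lon-2 (15.6 ± 0.461). The other 5 genes lay lower: sma-6 at 6.16 ± 0.586, sma-10 at 6.12 ± 0.473, sma-3 at 4.83 ± 0.502, sma-4 at 4.52 ± 0.345 and the ligand gene dbl-1 lowest at 2.26 ± 0.0890 RPKM. The highest mean was 23.0 times the lowest. In this order 3 neighbouring pairs overlapped between libraries (sma-9 with daf-4, sma-6 with sma-10, and sma-3 with sma-4) and are not distinguished by these data. Both Smads of the receptor-regulated kind were thus measured at unequal RPKM, with sma-2 at 49.3 to 54.9 and sma-3 at 4.22 to 5.30, and both receptors as well, with daf-4 at 24.4 to 25.8 and sma-6 at 5.58 to 6.97. Among all tested genes the 10 ranged from percentile 24.3 (dbl-1) to percentile 81.0 (sma-2) in RPKM. Dividing the multiply counted gene counts by the longest transcript moved sma-9 to the first place and sma-2 to the fourth, while dbl-1 stayed last.

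**Figure D1:**
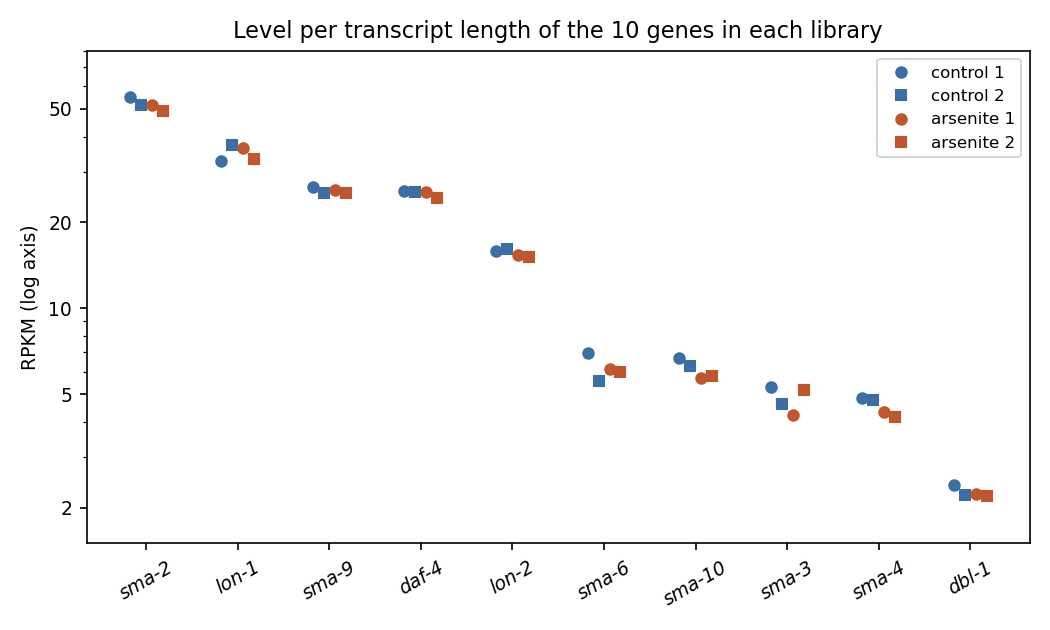
RPKM (vertical log axis) of each of the 10 genes in each library, ordered by the mean of the 4 libraries; colours mark control and arsenite and shapes mark replicates 1 and 2. The genes span 2.26 to 52.0 RPKM in their means, and the points of both groups lie close together within each gene.

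The main comparison asks whether 48 h with 100 nM arsenite changed the mRNA of these genes. None of the 10 passed: edgeR's quasi-likelihood test called 0 of 10 higher and 0 of 10 lower at an adjusted p under 0.05, with 0 of 10 at an unadjusted p under 0.05 too, and 0 of 10 were called by each of DESeq2 and edgeR's likelihood ratio and exact tests. The background is low as well: over 13776 genes the quasi-likelihood test called 0% at an adjusted p under 0.05, and at an unadjusted p under 0.05 it called 2.16% higher and 5.05% lower, while 1.01% passed the exact test. The fitted log2 fold changes of the 10, arsenite over control, ran from -0.14 to 0.038 with a median of -0.019, beside a median of 0.0055 over all tested genes. In absolute size their median log2 fold change was 0.029, beside 0.080 over all tested genes. These medians were not matched for counts. The 10 genes had at least 117 raw reads per library, while the filter's minimum count was 10. In 7 of the 10 the control replicates differed from each other by more than the fitted difference between the groups. How many of all tested genes do so was not counted, and single libraries vary more than group means. The 7 of 10 is therefore description and no evidence that these genes are stable. Both arsenite libraries lay above both controls for 1 gene (sma-9) and below both for 2 (sma-4 and sma-10), beside 17.1% and 19.1% of all tested genes.

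**Figure D2:**
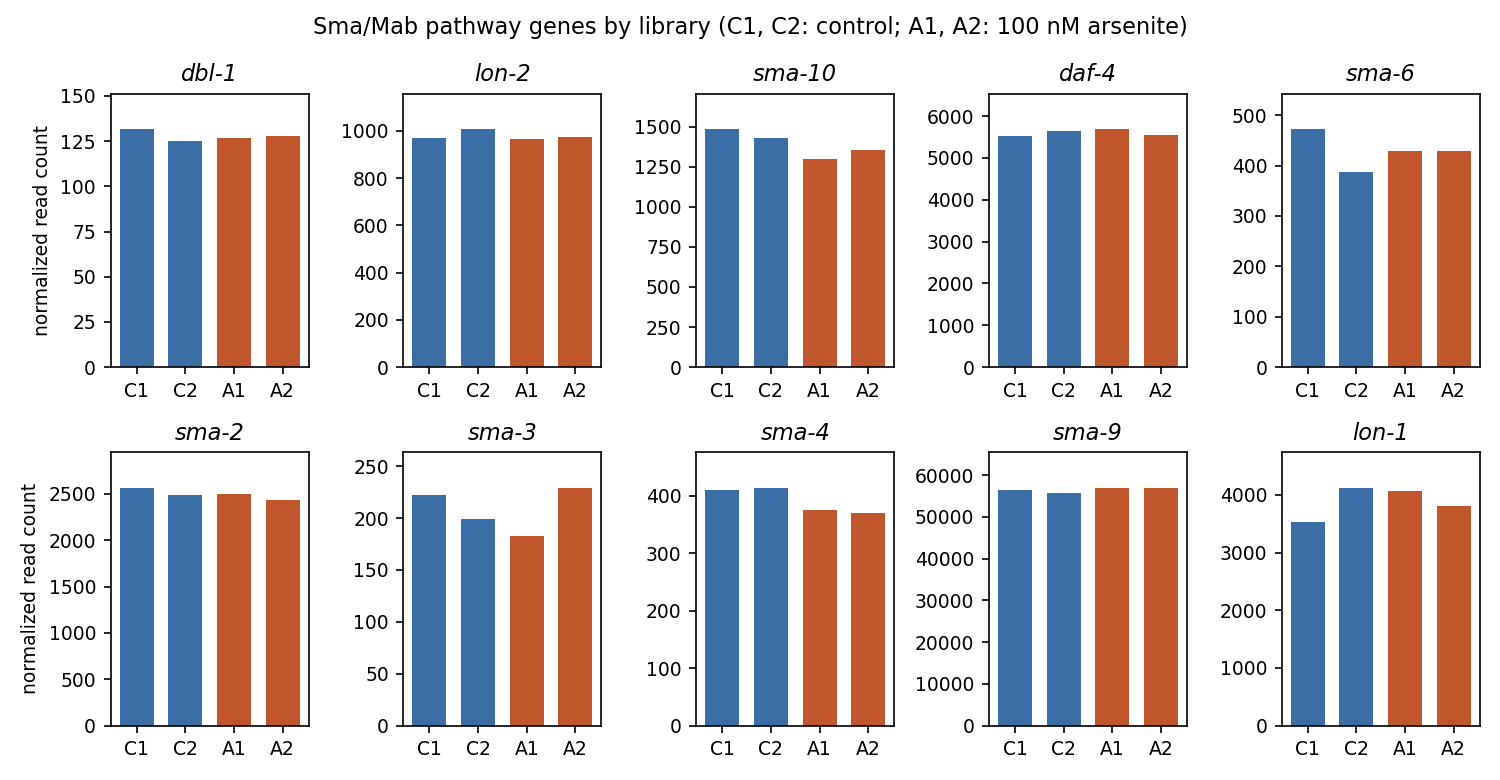
Normalized read count (counts scaled by TMM library size; each vertical axis starts at 0) of the 10 genes in control replicates 1 and 2 (C1, C2) and arsenite replicates 1 and 2 (A1, A2). Bars of both groups are of like height throughout; sma-4 and sma-10 are lower in both arsenite libraries, and sma-6 differs most between the controls (472.0 and 388.0).

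The ligand gene dbl-1 (chromosome V, 6758135 to 6760418, plus strand; all positions are on WBcel235) had 131.6 and 125.1 normalized counts in the control libraries (replicates 1 and 2, in this order throughout) and 126.9 and 128.0 with arsenite. Both arsenite values lay between the controls. The log2 fold change was -0.011 (SE 0.15, adjusted p = 0.994, edgeR quasi-likelihood test), and its 95% interval covers 0.793 to 1.24 times the control level. dbl-1 had the lowest counts of the 10, 117 to 138 raw reads per library, and, with sma-3, the widest interval. The 6 neuronal marker genes were listed for neurons as a whole, not for the cells that make DBL-1. Of them 0 passed the quasi-likelihood or the exact test. At an unadjusted p under 0.05, 1 (rab-3) was lower, beside 5.05% of all tested genes. Log2 fold changes of the 6 ran from -0.33 (rab-3) to 0.0083 (snb-1). Their summed RPKM was 272 to 273 in the controls and 254 to 265 with arsenite, most of it snb-1 (160 to 166 over all libraries). The part of this in the dbl-1 value was not tested.

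Outside the cell, LON-2, a glypican that binds DBL-1 and restrains the signal, is encoded on chromosome X (4738964 to 4749083, minus strand). lon-2 had 967.9 and 1007 normalized counts in the controls and 964.8 and 972.6 with arsenite. The groups overlapped, with a log2 fold change of -0.027 (SE 0.076, adjusted p = 0.974), and the interval covers 0.872 to 1.10 times the control. SMA-10, a transmembrane protein with leucine-rich repeats and immunoglobulin domains that promotes signalling at the receptors, is encoded on chromosome IV (274589 to 279939, plus strand). sma-10 had 1484 and 1429 normalized counts in the controls and 1299 and 1353 with arsenite. Both arsenite libraries were below both controls, and among the 10 genes this one had the smallest unadjusted p (0.088, edgeR quasi-likelihood test). The log2 fold change of -0.14 (SE 0.072, adjusted p = 0.762) did not pass, and its interval runs from 0.815 to 1.02 times the control.

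For the receptors no difference was detected with 2 libraries per group. daf-4 (chromosome III, 5625135 to 5632322, plus strand), whose product serves both the body size and the dauer branch of TGF-beta signalling, had 5536 and 5653 normalized counts in the controls and 5687 and 5541 with arsenite. The groups overlapped almost completely. The log2 fold change was 0.0050 (SE 0.059, adjusted p = 0.994), with an interval of 0.917 to 1.10 times the control, the narrowest of the 10 genes on the log2 scale. sma-6 (chromosome II, 6324484 to 6327355, plus strand), the type I receptor of the body size branch, had 472.0 and 388.0 normalized counts in the controls and 428.2 and 428.0 with arsenite. Both arsenite libraries fell between the controls, which differed from each other by -0.28 on the log2 scale (replicate 2 over replicate 1). The log2 fold change of sma-6 was -0.0090 (SE 0.11, adjusted p = 0.994). Its sign depended on the controls, since it was 0.14 without control replicate 1 and -0.14 without control replicate 2.

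The Smad genes are all on chromosome III, as are daf-4 and lon-1, so that 5 of the 10 genes lie there. sma-2 (8749680 to 8757089, plus strand) had 2565 and 2487 normalized counts in the controls and 2498 and 2436 with arsenite. The groups overlapped, and the log2 fold change was -0.034 (SE 0.066, adjusted p = 0.961). sma-3 (6860974 to 6863968, minus strand), the other receptor-regulated Smad of the branch, had 222.2 and 198.8 normalized counts in the controls and 182.6 and 229.3 with arsenite. The arsenite libraries were the lowest and the highest of the 4, and the log2 fold change of -0.031 (SE 0.15, adjusted p = 0.987) became -0.21 without arsenite replicate 2 and 0.12 without arsenite replicate 1. sma-4 (5816232 to 5820197, plus strand), the co-Smad that joins the other 2, had 409.1 and 413.7 normalized counts in the controls and 375.6 and 369.7 with arsenite. Replicates of sma-4 lay close together and both arsenite libraries were below both controls. Its log2 fold change of -0.14 (SE 0.098), the lowest of the 10, did not pass (adjusted p = 0.858), and its interval runs from 0.778 to 1.05 times the control.

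In the nucleus, SMA-9, a zinc finger protein related to Schnurri of Drosophila, works with the Smads. Its gene (chromosome X, 10769282 to 10782973, plus strand) had 56467 and 55616 normalized counts in the controls and 56885 and 56985 with arsenite. Both arsenite libraries were above both controls by a small margin, with a log2 fold change of 0.023 (SE 0.063, adjusted p = 0.974) and an interval of 0.921 to 1.12 times the control. With library sizes in place of TMM factors the sign of the sma-9 value turned (-0.017). lon-1 (chromosome III, 5474476 to 5478005, plus strand) encodes a secreted protein of the CRISP family made in the epidermis. It limits body length, and its mRNA is reported in worms to be repressed by the pathway. lon-1 had 3537 and 4126 normalized counts in the controls and 4063 and 3801 with arsenite. The controls were the lowest and the highest of the 4 libraries. The log2 fold change was 0.038 (SE 0.081, adjusted p = 0.969), the highest of the 10, and became 0.15 without control replicate 2 and -0.072 without control replicate 1.

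**Figure D3:**
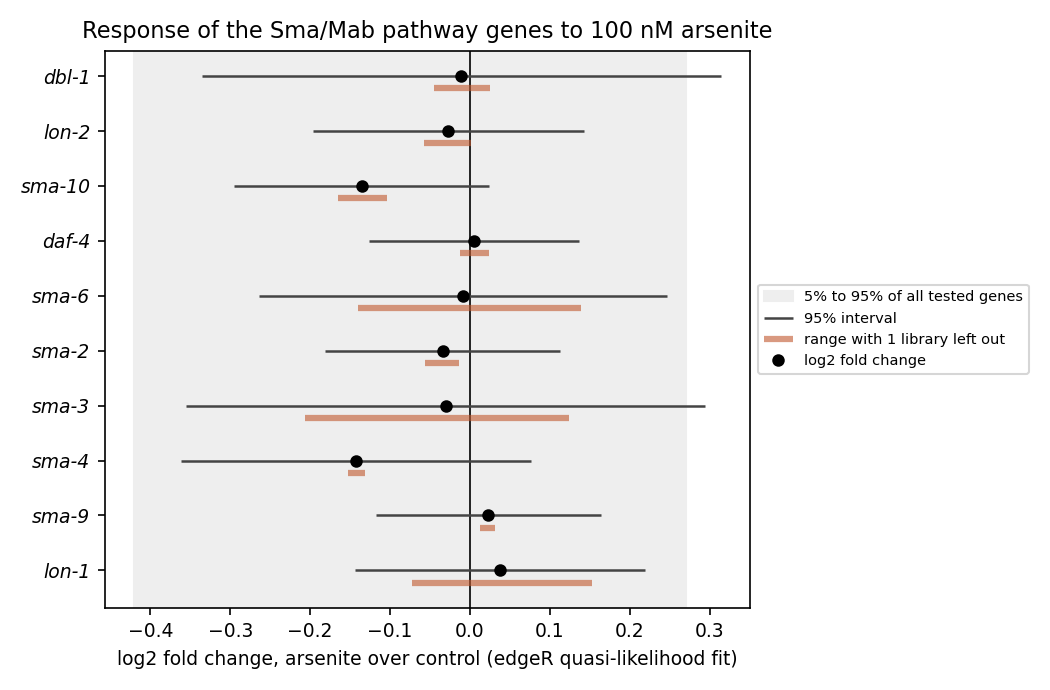
Log2 fold change, arsenite over control, of each gene (black points) with its 95% interval (thin lines), and the range of the fitted value when each of the 4 libraries is left out in turn (thick lines); the grey band holds the central 90% of all tested genes. All 10 intervals include 0, and sma-6, sma-3 and lon-1 change sign with the library left out by the widest margins.

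Exon overlaps touch 3 of the 10 genes, and the kit does not record strand. dbl-1 shares 9 of 1727 exonic nt with T25F10.4, sma-2 shares 100 of 1702 nt with aak-1 and 52 with ugtp-1, and sma-9 shares 47 of 7732 nt with clc-4, all on the opposite strand. Reads in these stretches cannot be assigned to 1 of the genes.

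The transcript table lists 29 transcripts of the 10 genes, and all were tested. Of them 0 passed edgeR's quasi-likelihood test or its exact test, and 0 had an unadjusted p under 0.05, beside 7.32% of 17509 tested transcripts. Both sma-4 transcripts were lower with arsenite in the fit by unequal amounts, -0.19 (SE 0.11) for the one of 1907 nt and -0.011 (SE 0.15) for the one of 742 nt. The sma-10 transcripts ran from -0.21 (1882 nt) to -0.090 (2795 nt). The transcripts of daf-4 and lon-1 differed little among themselves, with values of 0.0033 to 0.030 and of 0.0427 to 0.0433. The differences between transcripts of a gene were not tested, and the counts of transcripts of 1 gene are not independent where these share exons.

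One transcript stood apart in RPKM within sma-9. Of the 13 sma-9 transcripts, the one of 2093 nt had an RPKM of 73.9 and 70.2 in the controls and 72.0 and 70.2 with arsenite, whereas the 12 others had 22.4 to 26.1 in the 4 libraries. It was thus 2.92 to 2.95 times the median of the others in every library, in both groups alike. Its reads equalled 88.8% to 90.1% of those of the longest transcript, which has 7292 nt. In control replicate 1 the transcript of 2093 nt had 5162 reads, beside 1739 for the transcript of 2184 nt. Lengths were recovered from the deposited counts and RPKM values. The RPKM of this transcript therefore rests on the same 2093 nt in every library, and whether that length is right was not tested. The log2 fold change of the transcript of 2093 nt with arsenite was 0.029 (SE 0.057, adjusted p = 0.944, edgeR quasi-likelihood test). Among the sma-9 transcripts the one of 2184 nt had the highest value, 0.14 (SE 0.069, adjusted p = 0.705).

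**Figure D4:**
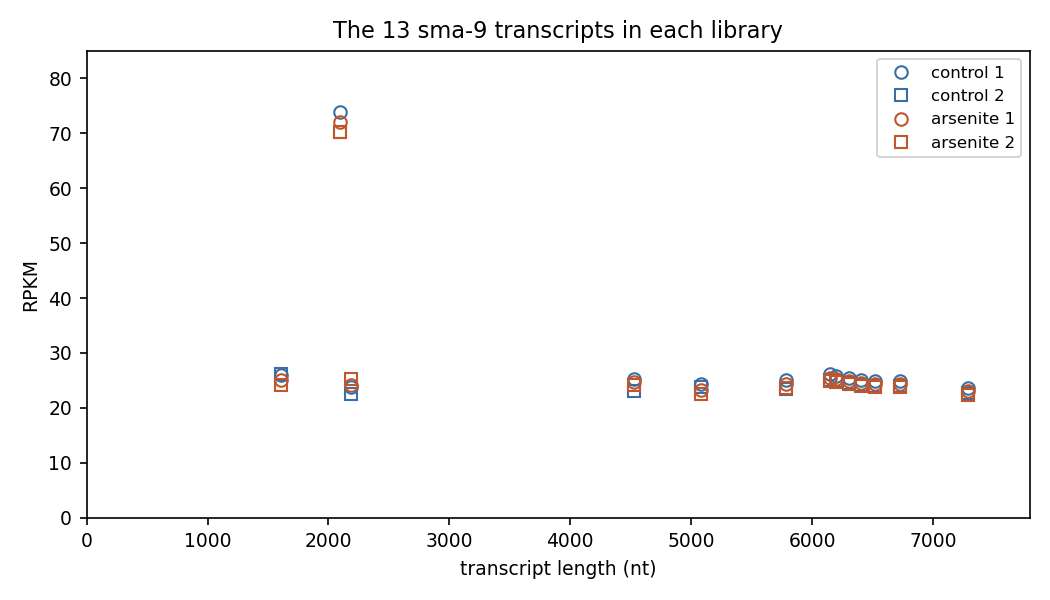
RPKM (vertical axis) of the 13 sma-9 transcripts against their length in nt (horizontal axis) in each library. Lengths were recovered from the deposited counts and RPKM values, so the axes are not independent. The transcript of 2093 nt lies at 70.2 to 73.9 RPKM in all 4 libraries, and the 12 others between 22.4 and 26.1.

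A further list holds genes reported to act on the same signal: the co-receptor gene drag-1, the neogenin-like receptor gene unc-40, crm-1, the proteases adt-2, bli-4 and sup-17, the tetraspanins tsp-12, tsp-14 and tsp-21, and mab-31, all 10 of them tested. Of these, 0 of 10 passed edgeR's quasi-likelihood test or its exact test, and 0 had an unadjusted p under 0.05. Their median log2 fold change was -0.031, and in 4 of 10 (drag-1, adt-2, tsp-21 and mab-31) both arsenite libraries were below both controls, in 0 above, beside 19.1% and 17.1% of all tested genes. drag-1 (a GPI-linked protein of the repulsive guidance family, listed as Y71G12B.16) had 72.5 and 93.0 normalized counts in the controls and 67.1 and 59.2 with arsenite, a log2 fold change of -0.39 (SE 0.20, adjusted p = 0.760). adt-2, an ADAMTS metalloprotease gene, had 3113 and 3111 in the controls and 2885 and 2769 with arsenite, a log2 fold change of -0.14 (SE 0.064, adjusted p = 0.705). For tsp-21 the value was -0.14 (adjusted p = 0.811) and for mab-31, listed as Y54E10A.16, -0.083 (adjusted p = 0.907). This list, like those below, was chosen with earlier results of these data known, so its counts are description only.

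The dauer branch shares DAF-4 but uses the ligand DAF-7, the type I receptor DAF-1, the Smads DAF-8, DAF-14 and DAF-3, and DAF-5, a protein of the Sno/Ski family. Together with the further TGF-beta ligand genes unc-129, tig-2 and tig-3 these are 9 tested genes, of which the quasi-likelihood test and the exact test called 0 each, with 0 at an unadjusted p under 0.05. The median log2 fold change was -0.034, and daf-3 alone had both arsenite libraries below both controls (-0.082, adjusted p = 0.881), 1 of 9 beside 19.1% of all tested genes. unc-129, which guides axons, had 909.7 and 678.8 normalized counts in the controls and 712.0 and 659.2 with arsenite. The first control stood above the 3 other libraries, and the log2 fold change of -0.22 (adjusted p = 0.807) was 0.011 without it. tig-3 (-0.18, adjusted p = 0.945) and daf-5 (-0.050, adjusted p = 0.951) also overlapped between groups.

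Of 4 further genes named for a small or long body, 0 passed the quasi-likelihood or the exact test. At an unadjusted p under 0.05, 2 of 4 were lower, beside 5.05% of all tested genes. The median log2 fold change was -0.20. In 3 of 4 both arsenite libraries were below both controls, beside 19.1% of all tested genes. These 4 genes too were listed with earlier results of these data known, so the counts are no independent support for a change. sma-5, a MAP kinase gene, had 2668 and 2573 normalized counts in the controls and 2345 and 2275 with arsenite (log2 fold change -0.18, SE 0.066, adjusted p = 0.529). lon-8, which encodes a secreted epidermal protein, had 324.2 and 374.1 in the controls and 271.4 and 286.6 with arsenite (-0.32, SE 0.12, adjusted p = 0.528). The collagen gene lon-3 also had both arsenite libraries below both controls, at 57.2 and 59.9 against 47.5 and 53.5 (-0.21, adjusted p = 0.930). sma-1, a beta-heavy spectrin gene, overlapped between groups (0.038, adjusted p = 0.957).

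The last list holds 11 genes reported in worms to depend on DBL-1, of which 9 were tested. Their median log2 fold change was -0.043, yet they spread more widely than the core genes, from -0.91 to 0.47. At an unadjusted p under 0.05, 2 of 9 were higher (cnc-2 and cnc-4) and 2 of 9 lower (col-41 and rol-6), beside the 2.16% and 5.05% of all genes given above. The list was chosen with earlier results of these data known, so these counts are no independent support for a change. The quasi-likelihood test called 0 of 9 at an adjusted p under 0.05, whereas col-41 was called by each of DESeq2, the likelihood ratio test and the exact test. Over all 13776 tested genes these tests called 30, 157 and 139, in this order.

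col-41, a cuticle collagen gene on chromosome X (15175032 to 15176481, minus strand), had 186.9 and 228.7 normalized counts in the controls and 106.3 and 113.7 with arsenite. The groups lay far apart, with a log2 fold change of -0.91 (SE 0.15) and an interval of 0.419 to 0.674 times the control. The call depended on the test: the adjusted p was 0.192 in the quasi-likelihood test, 0.000125 in the exact test, 0.000103 in the likelihood ratio test and 0.0486 in DESeq2. With 1 library left out in turn, the log2 fold change was -1.06 to -0.76. Such a fit leaves 1 library in an arm, so only the effect size is given. Over all 16 alternatives the adjusted p of col-41 ran from 0.000103 (likelihood ratio test) to 0.407 (quasi-likelihood test with the length correction). rol-6, another cuticle collagen gene, had 144.9 and 164.6 normalized counts in the controls and 113.5 and 91.7 with arsenite (-0.59, SE 0.17, adjusted p = 0.370 in the quasi-likelihood test and 0.0704 in the exact test, with 0.0587 as the smallest of 16 alternatives, none under 0.05). The collagen gene col-142 of the same list overlapped between groups, at 289.9 and 320.7 against 293.1 and 298.1. rol-6 is also 1 of 5 epidermal markers, of which 1 (col-119) was higher and 2 (rol-6 and dpy-7) were lower at an unadjusted p under 0.05, beside 2.16% and 5.05% of all tested genes, and 0 passed either test. The summed RPKM of that list was 1082 to 1154 in the controls and 1144 to 1288 with arsenite. Its part in the collagen values was not tested.

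The caenacin genes cnc-2 and cnc-4, which encode antimicrobial peptides, had higher counts with arsenite in both libraries, without passing the test. cnc-4 had 135.4 and 146.4 normalized counts in the controls and 208.4 and 181.5 with arsenite (log2 fold change 0.47, SE 0.14, adjusted p = 0.422). cnc-2 had 96.3 and 100.5 in the controls and 110.4 and 151.0 with arsenite (0.41, SE 0.19, adjusted p = 0.692), and its value was 0.17 without arsenite replicate 2 and 0.62 without arsenite replicate 1. Their transcripts, of 408 and 343 nt, are at percentiles 4.26 and 2.12 of length among tested genes, and after a correction for length the values were 0.36 and 0.26. The lysozyme gene lys-8, the transcription regulator gene mab-21 and the fatty acid desaturase genes fat-6 and fat-7 had log2 fold changes of -0.059 to -0.013. col-141 (1 to 8 raw reads per library) and spp-9 (0 to 2) were too low to test.

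**Figure D5:**
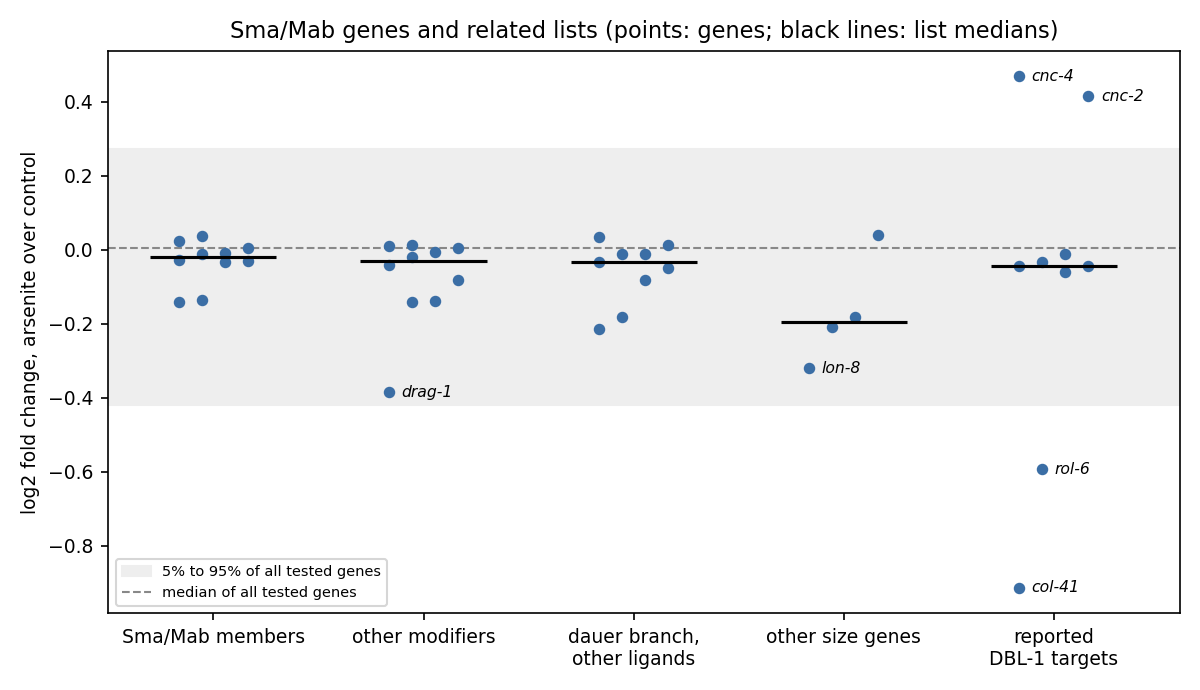
Log2 fold change, arsenite over control, of each tested gene (points) in the 5 lists, with list medians (black lines), the median of all tested genes (dashed line) and the central 90% of all tested genes (grey band). The 10 core genes lie between -0.14 and 0.038, and only col-41, rol-6, cnc-2 and cnc-4, all reported DBL-1 targets, lie outside the band.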

How the data were processed

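The authors prepared libraries with an unstranded mRNA kit, mapped reads with Bowtie to the genome (WBcel235 in the submitters' processing notes, which also name CASAVA) and to exon junctions, used reads with a unique position only and assigned these by RefSeq. Their tool versions: not given in the sources used here. Raw counts were deposited by the authors, and RPKM values scaled by length and depth, for 23858 transcripts and 19912 genes. RPKM served for levels, counts for tests. Positions come from RefSeq and exon overlaps from Ensembl, both on WBcel235.

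Counts were fitted for all genes with edgeR 4.0.16 (R 4.3.3): filterByExpr (minimum count 10, minimum total 15), TMM, then glmQLFit (prior count 0.125) and glmQLFTest on condition alone, Benjamini-Hochberg adjusted over 13776 genes, threshold 0.05. Adjusted p values are from this test unless another is named. For normalized counts, library sizes scaled by TMM were brought to their common mean. Intervals are at 95%. The biological coefficient of variation was 6.06%. Alternatives were DESeq2 1.42.0, edgeR's likelihood ratio and exact tests, RLE factors, library size only, other filters, robust dispersion, the replicate number as a term, a loess length correction (span 0.5), the largest transcript count and each library left out. The scripts were tested on simulated counts. The text names all 10 core genes and, from each further list, the 4 genes with the smallest unadjusted p; others were named after their values were seen. The members, lists and tests were chosen with earlier results of these data known. Sequences are not shown. The depth limits precision for genes of low counts such as dbl-1.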

Additional observations from a re-analysis of the deposited data

How the results depend on the processing

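With all 4 libraries kept, none of the 10 core genes passed the threshold in any alternative. The smallest adjusted p was then 0.584 (sma-10, edgeR quasi-likelihood test with the replicate block). Over all 16 alternatives, 22 of 160 values, over 8 genes, changed sign. With library size only, the median of the 10 was -0.059, and daf-4 (-0.034), sma-9 (-0.017) and sma-1 (-0.0025) turned. With the length correction the median was 0.026, and dbl-1 (0.036), sma-2 (0.0097), sma-3 (0.014), sma-6 (0.034) and lon-2 (0.017) turned. With the largest transcript count daf-4 was -0.0012. The cause was not tested.

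The labels do not say whether equal replicate numbers share a culture or batch, and deviations of same-numbered libraries correlated little (r = 0.0487 across genes). With the replicate block 0 core genes passed, and the quasi-likelihood test called 80 genes in all, 30 higher and 50 lower. With the length correction and the replicate block together the median of the 10 was 0.027, and dbl-1 (0.036), sma-2 (0.0098), sma-3 (0.0069), sma-6 (0.039) and lon-2 (0.017) turned.

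Over all genes the exact test called 139 (54 higher, 85 lower), the likelihood ratio test 157 (58 and 99), DESeq2 30 (8 and 22, with 802 genes given no adjusted p) and the test without a filter 79 (35 and 44). Leaving out 1 library gave 2 to 193 calls, 1 to 121 higher and 1 to 72 lower. Among reported DBL-1 targets 1 was called by DESeq2, by the likelihood ratio test, by the exact test, without a filter and with the block, and 0 to 1 with a library left out.

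With a library left out, in turn, the median of the 10 was -0.051 to -0.010. Of the 10 core genes and the 4 of smallest p in each further list, those that turned ranged as follows (other genes of the lists were not followed here): daf-4 -0.013 to 0.024, dbl-1 -0.046 to 0.025, lon-1 -0.072 to 0.15, lon-2 -0.058 to 0.0015, sma-3 -0.21 to 0.12, sma-6 -0.14 to 0.14, daf-5 -0.11 to 0.011, sma-1 -0.020 to 0.096, tig-3 -0.50 to 0.070 and unc-129 -0.41 to 0.011. The lone library of an arm was then assumed to vary like the others.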
